A study of Metroxylon sagu with 6 samples.

Results

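LIR1, the light-regulated protein of the chloroplast, was represented in the sago palm leaf transcriptome by 2 of 99933 unigenes, which are transcript sequences assembled from the reads without a genome. They were taken as every unigene whose best Swiss-Prot match carries the name Light-regulated protein or the gene name LIR1. The first, CL7526.Contig1_All, was chosen by its high mean FPKM (a level, defined with the libraries), so its level and rank are a description here. The second, Unigene10549_All, carries the same Swiss-Prot match. Leaf RNA came from 3 trunking palms (ST1, ST4 and ST5), which form the normal trunk and served as the control, and from 3 non-trunking palms (SN7, SN8 and SN9), which do not form it. All 6 palms (*Metroxylon sagu*) grew in peat soil of a plantation, and neither their age nor the hour at which their leaves were taken is given in the sources used here. Each phenotype was collected at a place of its own, so phenotype and place cannot be told apart.

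LIR1 was first described in rice as a transcript that accumulates in the light and follows the circadian clock. In rice and *Arabidopsis thaliana* the small nuclear-encoded protein binds the leaf-type ferredoxin-NADP reductase (FNR), which passes electrons from ferredoxin to NADP at the end of the photosynthetic electron chain. It strengthens the hold of FNR on its membrane tethers, TIC62 and TROL.

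Each library held between 17927176 and 18492907 expected counts, which are RSEM's estimates of the fragments that belong to each unigene. The labelled tissue showed its defining markers. Unigenes of the Rubisco small subunit, Rubisco activase and the chlorophyll-binding proteins (52 in all) summed to between 14997 and 28363 FPKM in trunking palms and between 21402 and 34922 FPKM in non-trunking palms. FPKM is the count scaled by transcript length and library size, and so allows levels to be ordered between unigenes. In bulk leaf, fewer cells of a type and less RNA per cell cannot be told apart.

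The annotation of both unigenes pointed to LIR1 in Swiss-Prot and Nr, with 1 exception among the databases. CL7526.Contig1_All, of 1279 nt, matched rice LIR1 with an E-value of 2.5e-30 and carried the Lir1 domain in InterPro, and its best Nr match was the light-regulated protein of the date palm. Unigene10549_All, of 1093 nt, matched rice LIR1 with an E-value of 9.3e-26, and its best Nr match was the light-regulated protein of the oil palm. The best nucleotide matches of the 2 unigenes were different oil palm transcripts of that name. The KEGG cell of both names a vacuolar sorting protein of another grass in place of LIR1.

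CL7526.Contig1_All was among the most abundant transcripts of trunking leaf and far less abundant in non-trunking leaf. Its level was 2593 FPKM in ST1, 2839 FPKM in ST4 and 2981 FPKM in ST5. In the non-trunking palms it was 42.3 FPKM in SN7, 317 FPKM in SN8 and 84.0 FPKM in SN9. The groups did not overlap, and the lowest trunking palm stood 8.17-fold above the highest non-trunking palm. The group means were 2804 ± 196 FPKM (SD, n = 3) and 148 ± 148 FPKM (SD, n = 3). A unigene of the same direction whose groups also did not overlap in the count scaled by library size (CPM) was found in 8.55% of the 45928 unigenes tested (8.71% in the other direction), and in 9.41% of those with a mean FPKM of at least 100.

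The trunking palms were closely alike and the non-trunking palms were not. The coefficient of variation of the FPKM was 7.00% among trunking palms, where 42 of 850 unigenes with a mean FPKM of at least 100 had a lower one. Among non-trunking palms it was 100.3%, and 820 of the 850 had a lower one. SN8 stood 7.51-fold above SN7. In order of level, ST5, ST4 and ST1 lay within 1.15-fold of one another, and SN8, SN9 and SN7 followed in wider steps. With 1 library per palm, no spread of a single palm was measured, and only the gap between the groups exceeded the spread within both of them. The unigene took 0.315% of the counts of ST1 (95% Wilson interval 0.312 to 0.318%), against 0.0386% in SN8 (0.0377 to 0.0395%) and 0.00515% in SN7 (0.00483 to 0.00549%), intervals that cover counting error only.

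**Figure D1:**
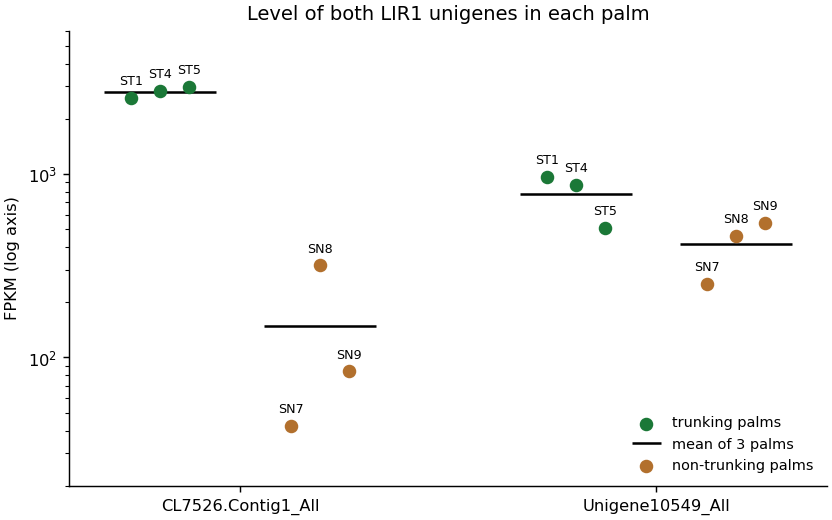
Level of both LIR1 unigenes in each palm, in FPKM on a log axis, with 1 point per library and a line at the mean of 3 palms. For CL7526.Contig1_All all trunking palms lie at or above 2593 FPKM and all non-trunking palms at or below 317 FPKM, while the groups of Unigene10549_All overlap.

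In the fit over all unigenes the difference was large but its call depended on the test. Counts were compared with the quasi-likelihood (QL) F-test of edgeR, and adjusted p-values are those of Benjamini and Hochberg over all unigenes. CL7526.Contig1_All had a log2 fold change, taken as non-trunking minus trunking, of -4.23 ± 0.80 (SE), which is an 18.7-fold lower level in non-trunking palms. The edgeR QL test gave it an adjusted p of 0.205, and 0 of 45928 unigenes (0.0%) came under 0.05 in either direction. At an unadjusted p under 0.05 edgeR QL gave 4526 unigenes (9.85%), of which those lower in non-trunking palms were 4.43% of all tested and those higher 5.43%. CL7526.Contig1_All was among the lower ones.

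Other tools drew the line elsewhere. DESeq2 gave CL7526.Contig1_All an adjusted p of 9.74e-08 and called 2.22% of its unigenes, 1.05% lower and 1.17% higher. The likelihood ratio test of edgeR gave 3.85e-05 and called 1.68%, of which the lower ones were 0.723% and the higher ones 0.956%. On log2(FPKM + 1), limma returned an adjusted p of 0.0736 and called 0.00904%, with 0.00678% lower and 0.00226% higher. Over all 14 alternative fits with edgeR, DESeq2 or limma the adjusted p lay between 9.74e-08 and 0.527, and the log2 fold change was negative in each. Without SN8 the log2 fold change was -5.45, a 43.8-fold lower level (edgeR QL, adjusted p = 0.197). An exact permutation test on the log2 FPKM of the 6 palms gave p = 0.1 (two-sided), the smallest that 3 palms against 3 allow.

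Few unigenes stood lower in non-trunking palms by more. Of the 45928 tested, 76 had a more negative log2 fold change than CL7526.Contig1_All. Of the 850 with a mean FPKM of at least 100, only Unigene879_All did, which is described with the clock genes. Unigenes that stood higher in non-trunking palms by a larger change were not counted here. They include CL6092.Contig2_All, with a log2 fold change of 4.37. The median log2 fold change was 0.02 over all unigenes tested and 0.09 over those 850, where the median size of the change was 0.43.

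**Figure D2:**
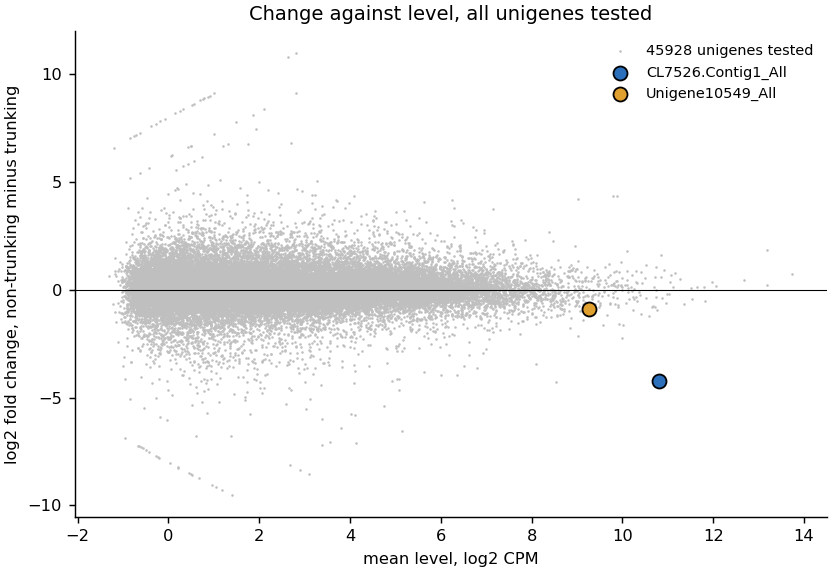
Log2 fold change (non-trunking minus trunking) against the mean level in log2 CPM for the 45928 unigenes tested, with both LIR1 unigenes as large points. CL7526.Contig1_All lies apart from unigenes of like level at -4.23, and Unigene10549_All lies at -0.89.

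The second unigene gave another picture. Unigene10549_All stood at 966 FPKM in ST1, 874 FPKM in ST4 and 508 FPKM in ST5, and at 253 FPKM in SN7, 459 FPKM in SN8 and 540 FPKM in SN9. SN9 lay above ST5, so the groups overlapped. The means were 783 ± 242 FPKM (SD, n = 3) in trunking and 417 ± 148 FPKM (SD, n = 3) in non-trunking palms. Its log2 fold change, -0.89 ± 0.36 (SE), had an adjusted p of 0.495 with edgeR QL and of 0.241 with DESeq2.

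The order of the 2 unigenes within a leaf was reversed between the groups. The FPKM of CL7526.Contig1_All was 2.68 times that of Unigene10549_All in ST1, 3.25 times in ST4 and 5.87 times in ST5. The same ratio was 0.167 in SN7, 0.692 in SN8 and 0.156 in SN9. CL7526.Contig1_All was thus the more abundant of the pair in all 3 trunking palms and the less abundant in all 3 non-trunking palms. This ratio is taken within a library and does not depend on the scaling between libraries. Its mean log2 value was 1.89 ± 0.59 (SD, n = 3) in trunking and -1.93 ± 1.21 (SD, n = 3) in non-trunking palms, a difference of -3.82 (exact permutation test, two-sided, p = 0.1, the smallest possible). Leaving out each palm in turn, which was added after seeing the data, kept this difference between -4.53 and -3.45, and it was -4.53 without SN8.

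Both unigenes together made 3559, 3712 and 3489 FPKM in ST1, ST4 and ST5, and 295, 776 and 624 FPKM in SN7, SN8 and SN9. Among trunking palms the sum varied little, as did CL7526.Contig1_All, its larger part, while Unigene10549_All ranged from 508 to 966 FPKM. CL7526.Contig1_All held between 72.9 and 85.4% of it in trunking palms and between 13.5 and 40.9% in non-trunking palms. The summed mean was 6.35-fold higher in trunking palms.

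**Figure D3:**
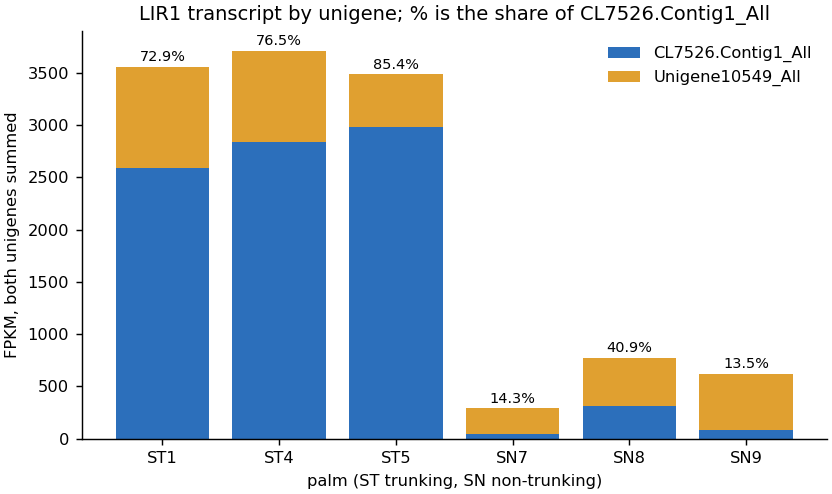
FPKM of both LIR1 unigenes stacked for each palm, on a linear axis from 0, with the share of CL7526.Contig1_All above each bar. The bars of the trunking palms reach between 3489 and 3712 FPKM and are mostly CL7526.Contig1_All, and those of the non-trunking palms reach between 295 and 776 FPKM and are mostly Unigene10549_All.

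LIR1 also held different places in the order of abundance. CL7526.Contig1_All was number 5 of all unigenes by FPKM in ST1, 4 in ST4 and 3 in ST5, and number 2580 in SN7, 191 in SN8 and 1040 in SN9. By the mean FPKM of each group it was 3rd in trunking and 535th in non-trunking palms. Unigene10549_All was 44th and 130th by the same means. Over all 6 palms CL7526.Contig1_All was 13th, next after plastocyanin. Among the 10 unigenes of highest mean FPKM, 8 had overlapping groups, 2 stood higher in non-trunking palms without overlap and 0 stood lower. Of the 850 with a mean FPKM of at least 100, 102 stood higher and 80 lower without overlap in CPM. The counts among the 10 were not tested against these. The log2 fold changes of the 10 lay between -0.54 and 1.84. The Rubisco small subunit, CL3826.Contig1_All, had a log2 fold change of 0.74, and the terpineol synthase CL10555.Contig3_All had the 1.84.

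Another 3 contigs touch LIR1 by their nucleotide match alone and were not taken by the rule. CL7526.Contig2_All (580 nt) and CL7526.Contig3_All (242 nt) belong to the same cluster as CL7526.Contig1_All, and Unigene29800_All (863 nt) shares its best nucleotide match with Unigene10549_All. CL7526.Contig2_All was listed at 14.6, 60.9 and 5.01 FPKM in ST1, ST4 and ST5 and at 2.49 and 4.06 FPKM in SN8 and SN9, and it was not listed in SN7. CL7526.Contig3_All was listed in the trunking palms only, at up to 3.20 FPKM. Both together made at most 2.01% of the counts of the cluster in any library. Unigene29800_All reached 14.3 FPKM in ST4 and 11.7 FPKM in SN9 and was at or below 3.43 FPKM in the other 4 libraries. Reads that match more than 1 contig are shared out by RSEM. The expected counts of CL7526.Contig1_All and Unigene10549_All were whole numbers (within 0.005) in all 6 libraries. Those of CL7526.Contig2_All and CL7526.Contig3_All were not whole in the trunking palms, where their sums were. With the counts of the whole cluster added up, the log2 fold change was -4.23 (edgeR QL, adjusted p = 0.152).

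The most abundant unigenes of FNR, TIC62 and TROL, the proteins that LIR1 works with, had groups that overlapped. Of 10 unigenes tested for FNR and its tethers, 0 came under an unadjusted p of 0.05 with edgeR QL in either direction, against 5.43% of all unigenes higher and 4.43% lower in non-trunking palms. Without any 1 palm that count was at most 1 in either direction. The median log2 fold change of the 10 was 0.15. Leaf-type FNR (CL9905.Contig2_All) stood at 631, 797 and 486 FPKM in ST1, ST4 and ST5 and at 706, 552 and 647 FPKM in SN7, SN8 and SN9. These groups overlapped throughout, and the log2 fold change was 0.09 ± 0.35 (SE). TROL (CL10368.Contig2_All), the rhodanese-like tether of FNR, lay between 123 and 176 FPKM in all 6 palms (log2 fold change 0.21 ± 0.30, SE). TIC62 (CL3906.Contig7_All), the tether that also occurs at the import machinery of the chloroplast envelope, lay between 10.6 and 20.4 FPKM (log2 fold change -0.28 ± 0.34, SE). The non-leaf FNR (Unigene7301_All, matched to an embryo isozyme) lay between 19.5 and 29.7 FPKM. The difference between LIR1 and these partners was not tested.

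Ferredoxin is the donor of FNR, and the most abundant of its 7 unigenes had its higher values where LIR1 had its lower ones. Unigene10469_All, matched to ferredoxin-2 of *A. thaliana*, stood at 745, 717 and 257 FPKM in ST1, ST4 and ST5 and at 2648, 1113 and 1642 FPKM in SN7, SN8 and SN9, so that its groups did not overlap. The log2 fold change was 1.78 ± 0.59 (SE), and its adjusted p was 0.420 with edgeR QL and 0.0609 with DESeq2. Over ferredoxins and the enzymes they feed, 2 of 31 unigenes tested (6.45%) were higher and 0 lower at an unadjusted p under 0.05, close to the background given above. Without SN7 the counts were 1 higher and 1 lower, and without SN9 they were 4 and 0. The other of the pair was Unigene4134_All, an m-type thioredoxin whose adjusted p was 0.0115 with DESeq2 and 0.335 with edgeR QL. No further ferredoxin unigene came under an unadjusted p of 0.05 with edgeR QL. The most abundant unigenes of the ferredoxin-thioredoxin reductase, glutamate synthase and sulfite reductase, which draw electrons from ferredoxin, had log2 fold changes of -0.06, 0.02 and 0.16. That of nitrite reductase, another such enzyme, was 0.62, with SN9 below all trunking palms and SN8 above them. Thioredoxin f (CL4932.Contig1_All), which receives electrons through the reductase, stood at 142, 169 and 99.9 FPKM in ST1, ST4 and ST5 and at 247, 194 and 173 FPKM in SN7, SN8 and SN9. Its groups lay narrowly apart in FPKM but overlapped in CPM, and its log2 fold change was 0.69 (edgeR QL, adjusted p = 0.556). The most abundant unigene of thioredoxin m had a log2 fold change of 0.32.

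Cyclic flow returns electrons from ferredoxin to the electron chain by a route through PGR5 and PGRL1 or through the NDH complex. Of its 56 unigenes tested, 6 (10.7%) were higher and 1 was lower at an unadjusted p under 0.05 (edgeR QL), beside 5.43% and 4.43% of all unigenes, with a median log2 fold change of 0.31. These counts rested on single palms, with 2 higher and 3 lower without SN7, 11 higher without SN8, 3 higher without ST5 and 3 lower without ST1. The median was 0.02 without SN7 and 0.04 without ST5. DESeq2 gave 2 of the 56 an adjusted p under 0.05. The most abundant PGR5 unigene (CL8043.Contig2_All) stood at 73.2, 81.8 and 38.4 FPKM in trunking and at 140, 75.3 and 113 FPKM in non-trunking palms, which overlapped. The most abundant PGRL1 unigene (CL4047.Contig4_All) overlapped too, with a log2 fold change of 0.06. Others of this route were among the higher calls, without overlap. They were CL8043.Contig3_All (PGR5, 1.02), CL4047.Contig3_All (PGRL1, 0.52) and CL5246.Contig2_All (PGRL1, 1.46, DESeq2 adjusted p = 0.0238). Subunit M of the NDH complex (Unigene10634_All) stood at 88.3, 108 and 33.5 FPKM in ST1, ST4 and ST5 and at 224, 136 and 158 FPKM in SN7, SN8 and SN9, without overlap (log2 fold change 1.29, edgeR QL adjusted p = 0.461). The 1 unigene that was lower was Unigene23106_All, a subunit of NDH subcomplex B, with a log2 fold change of -0.98. Of 13 unigenes of photosystem I and plastocyanin, which feeds it, 0 came under that p. Plastocyanin (Unigene26247_All) lay between 1154 and 1933 FPKM in trunking and between 1048 and 1624 FPKM in non-trunking palms.

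**Figure D4:**
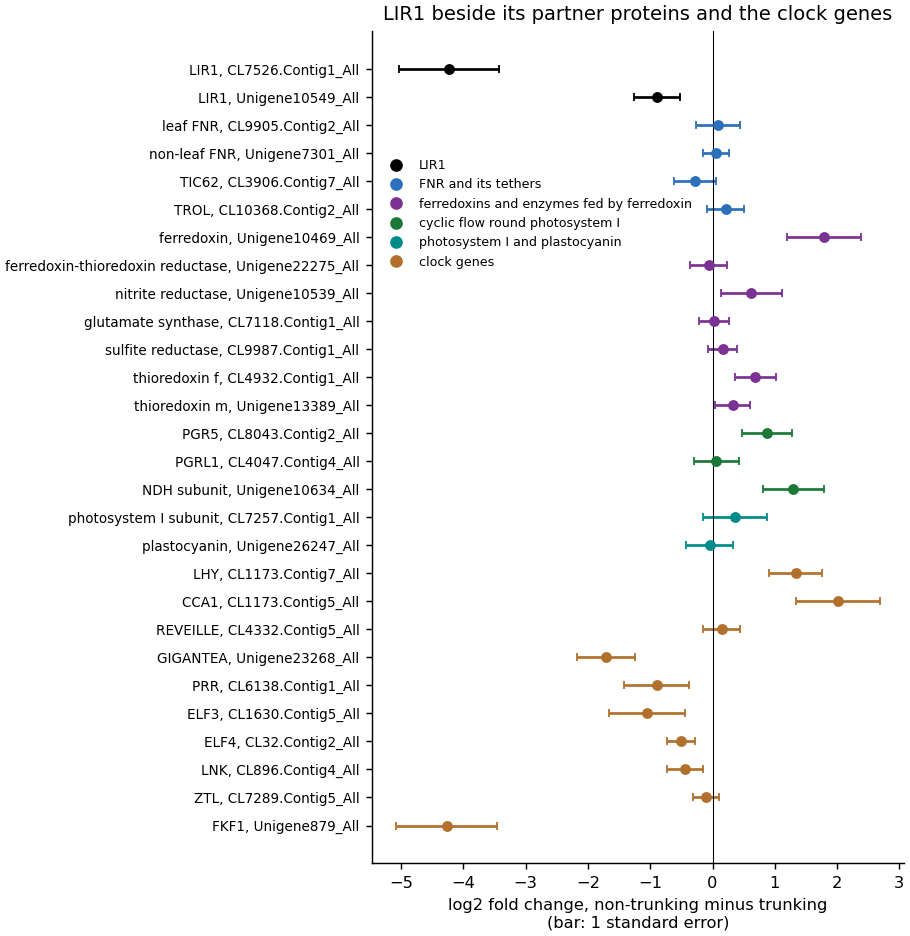
Log2 fold change (non-trunking minus trunking) with 1 standard error from edgeR for both LIR1 unigenes, for the most abundant unigene of each partner protein and for that of each clock gene. The FNR and tether unigenes lie between -0.28 and 0.21, while CL7526.Contig1_All at -4.23 and FKF1 at -4.27 lie at the lower end.

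Clock genes were examined because LIR1 is under clock control in rice. Of 115 clock unigenes tested, 20 (17.4%) stood higher in non-trunking palms and 18 (15.7%) stood lower at an unadjusted p under 0.05 (edgeR QL), against the 5.43% and 4.43% of all unigenes. The number higher was 38 without ST1 and 9 without ST4 or without ST5, and 13 without SN7, while the number lower stayed between 17 and 23 without each palm. After adjustment over all unigenes 0 passed 0.05 in that test, and 13 did in DESeq2. The lower calls held 8 of 11 GIGANTEA unigenes and the single FKF1 unigene. Among the higher calls were 7 of 12 LHY, both CCA1 and 4 of 21 LNK unigenes. The most abundant LNK unigene (CL896.Contig4_All) was not among them, with a log2 fold change of -0.44 ± 0.28 (SE) and overlapping groups. The PRR family, the pseudo-response regulators of the clock and the largest in the list, was divided, with 5 of 40 unigenes higher and 7 lower. Of the rest, 2 of 8 ELF4 unigenes were lower and 2 of 14 REVEILLE unigenes were higher. Unigenes of a list can be contigs of the same cluster, so these counts and shares are not of separate genes. The most abundant LHY and CCA1 unigenes (CL1173.Contig7_All and CL1173.Contig5_All) belong to the same cluster.

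FKF1 and GIGANTEA form a blue-light-dependent complex that is abundant late in the day in *A. thaliana*, and LHY and CCA1 are repressors that peak at dawn. FKF1, Unigene879_All (matched to Adagio-like protein 3 of rice), stood at 277, 421 and 328 FPKM in ST1, ST4 and ST5 and at 3.48, 36.2 and 13.0 FPKM in SN7, SN8 and SN9. Like CL7526.Contig1_All it was lowest in SN7 and highest among non-trunking palms in SN8. The log2 fold change of FKF1 was -4.27 ± 0.81 (SE; edgeR QL, adjusted p = 0.205). GIGANTEA (Unigene23268_All) stood at 122, 156 and 188 FPKM in trunking palms and at 23.9, 81.8 and 33.1 FPKM in SN7, SN8 and SN9. LHY (CL1173.Contig7_All) stood the other way, at 134, 66.0 and 56.8 FPKM in trunking and at 201, 207 and 220 FPKM in non-trunking palms. The Adagio-like protein 1 unigene (CL7289.Contig5_All), a relative of FKF1, lay at or below 41.1 FPKM in all palms and had a log2 fold change of -0.10. The part of the clock genes in the level of LIR1 was not tested.

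Unigenes with the pattern most like CL7526.Contig1_All were sought among 728 with a Swiss-Prot match and a mean FPKM of at least 100. Likeness was Pearson's r of log2 CPM over the 6 libraries. It is a description, since the 6 points fall into 2 groups that lie apart. The 10 most alike had an r between 0.954 and 0.996. All 10 had groups that did not overlap, and SN8 was the highest non-trunking palm in log2 CPM in each of the 10 (in FPKM, in 9 of them). CL7526.Contig1_All has both traits, so the choice by likeness favours them and they are no separate result. Some passed the limit of mean FPKM only through the trunking palms, such as FKF1 with group means of 342 and 17.5 FPKM. The 10 include FKF1 with an r of 0.993, GIGANTEA with 0.975 and chaperone unigenes, namely a class II small heat shock protein (Unigene29548_All, 0.995) and a DnaJ protein (CL5868.Contig3_All, 0.981). The others were Unigene28259_All (cell wall protein gp1, 0.996), Unigene4300_All (CCG-binding protein 1, 0.968), Unigene16944_All (DRT102, 0.966), CL1576.Contig3_All (auxin-repressed 12.5 kDa protein, 0.960), CL3310.Contig1_All (chloroplast lipoxygenase 2-1, 0.956) and Unigene20177_All (formin-like protein 5, 0.954).

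Size separated these unigenes more than r did. FKF1 had a log2 fold change of -4.27, the auxin-repressed protein -3.95 and the heat shock protein -3.44, while the cell wall protein with the highest r had -0.90. The second LIR1 unigene had an r of 0.794 and was only 73rd in likeness. Which unigenes are most alike also depended on single palms, since 3 of the 10 remained among the 10 most alike without ST4 and 5 without SN7.

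The 5 most opposite patterns belonged to unigenes that stood higher in non-trunking palms, a direction that the choice by r sets. Some passed the limit of mean FPKM only through those palms. CL6092.Contig2_All, for example, had a mean of 63.7 FPKM in trunking and 1188 FPKM in non-trunking palms. The 5 had an r between -0.973 and -0.946. Among them were 2 contigs of an early light-induced protein, a chlorophyll-binding protein of light-stressed thylakoids. CL6092.Contig2_All stood at 50.8, 120 and 20.1 FPKM in ST1, ST4 and ST5 and at 1676, 598 and 1291 FPKM in SN7, SN8 and SN9, with a log2 fold change of 4.37. GDP-mannose 3,5-epimerase (CL7145.Contig1_All), an enzyme of ascorbate synthesis, stood at 45.2, 69.4 and 43.6 FPKM in trunking palms and at 361, 128 and 235 FPKM in SN7, SN8 and SN9. In both, SN8 was the non-trunking palm nearest to the trunking palms, which the choice by r favours as well. The remaining 2 were a glutathione S-transferase (Unigene1287_All) and an IN2-1 homologue (Unigene22499_All), with log2 fold changes of 0.91 and 0.49.

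**Figure D5:**
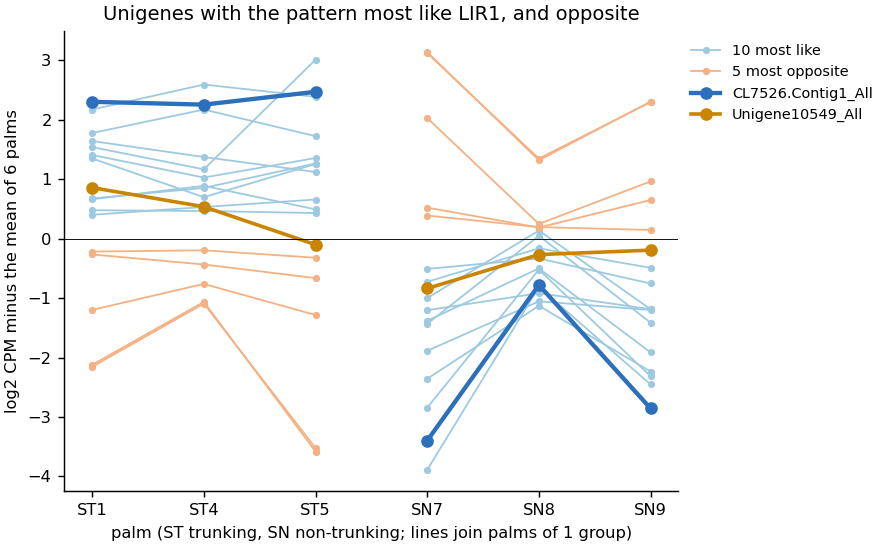
Log2 CPM of each unigene minus its own mean over the 6 palms, for both LIR1 unigenes, the 10 unigenes most like CL7526.Contig1_All and the 5 most opposite. CL7526.Contig1_All is nearly level over the trunking palms and lowest in SN7. SN8 is the highest non-trunking palm in all 10 of the most alike, a trait that their choice by likeness favours.

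Markers of the cell types in a leaf were set beside these values. Cuticle genes of the epidermis (9 unigenes) summed to between 541 and 625 FPKM in trunking palms. In SN7, SN8 and SN9 they summed to 242, 577 and 280 FPKM, so the groups overlapped through SN8. Most of this sum was CER1 (Unigene22933_All), with a mean of 349 FPKM and overlapping groups. KCS6 (CL10554.Contig2_All) overlapped too. CER3 (CL6734.Contig1_All) stood lower in non-trunking palms without overlap (log2 fold change -0.80, edgeR QL unadjusted p = 0.0193). Only 3 of the 9 were tested, with a median log2 fold change of -0.65, and without the expression filter the median was 1.70. Xylem genes (6 unigenes) summed to between 14.4 and 16.3 FPKM in trunking palms. In non-trunking palms they summed to between 12.2 and 14.2 FPKM, without overlap. The summed levels of mesophyll (52 unigenes), phloem (10), guard cell (9) and dividing cell (43) markers overlapped between the groups. Among the most abundant unigenes of each marker protein, only the cellulose synthase CESA4 (Unigene20287_All) was at 0 in a library, SN8. The part of cell composition in the level of LIR1 was not tested.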

How the data were processed

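The authors extracted leaf RNA, sequenced 1 library per palm on the BGISEQ-500, assembled clean reads with Trinity, clustered contigs with TGICL and mapped reads back with Bowtie2. The authors deposited RSEM's expected count and FPKM per unigene. Versions of these tools: not stated in the paper or labels. A table of the paper names palms 7 to 9 trunking, and the sample labels were followed.

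Unigenes not listed in a file (the lowest listed FPKM is 0.01) were set to 0. Expected counts were rounded and fitted over all unigenes with edgeR 4.0.16 (filterByExpr, TMM, quasi-likelihood test, Benjamini-Hochberg adjustment, threshold 0.05) in R 4.3.3. DESeq2 1.42.0, left with an empty adjusted p for 46984 unigenes, and limma 3.58.1 were run beside it. The standard error is the log2 fold change over the root of F. Fits were tested on simulated counts in which 200 unigenes were changed and all unigenes had the same dispersion (spread beyond counting error). Real unigenes differ in spread, so that test cannot decide which of the differing calls holds here. Whether the palms are independent beyond being separate plants is not stated. Joins used Python 3.11.15 and pandas 2.3.3, and exact tests SciPy 1.17.1.

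The LIR1 unigenes and gene lists were chosen with earlier results of these data known. Named were the LIR1 contigs, the 10 unigenes of highest mean FPKM, the 10 most like and 5 most opposite, and the most abundant unigene of each listed protein. Other names were chosen after their values were seen. Lists were defined by Swiss-Prot words. No LIR1 sequence was used here.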

Additional observations from a re-analysis of the deposited data

How the results depend on the processing

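CL7526.Contig1_All had a negative log2 fold change in all 14 alternative fits. It passed 0.05 with DESeq2 (-4.23) and with edgeR's likelihood ratio test (-4.23), and its range was -5.45 to -3.82 without each palm. The count of unigenes called, 0 in edgeR's quasi-likelihood test, was 1175 with DESeq2, 771 with the likelihood ratio test and 4 with limma on log2(FPKM + 1), and 0 without each palm. Unigene10549_All passed in none of its fits. Of 225 list unigenes tested, 47 had an unadjusted p under 0.05 (edgeR QL), beside 9.85% of all unigenes tested. Most of the 47 were clock unigenes, 20 of them higher and 18 lower in non-trunking palms. The count lay between 35 and 67 without each palm. The abundance rank of CL7526.Contig1_All by group mean was 4 without each trunking palm and between 344 and 1589 without each non-trunking palm. Of the 10 unigenes most like it, 3 remained with Spearman's rho, 3 with a mean FPKM of at least 10, and between 3 and 9 without each palm. No paired analysis was possible because the groups share no replicate numbers. The effect of depth on precision was not tested.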
